A study of Homo sapiens with 12 samples.

Results

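MITF, its close relatives and the transcription factors that define the melanocyte lineage were followed in human melanoma cells after depletion of MITF. The members were taken by symbol from the table of normalised reads: MITF, TFEB and TFE3 of the MITF family, the neural crest and melanocyte factors SOX10, PAX3, SOX9 and TFAP2A, and the zinc finger factors ZEB1, ZEB2 and SNAI2. Of these 10 symbols 9 were listed among the 12616 genes of the table, and SOX9 had no row, so SOX9 was not analysed here. MeWo and SkMel28 are cutaneous melanoma cell lines, and both carried a short hairpin RNA against MITF that doxycycline (Dox) switches on. Each line was kept for 8 days with 0 (control) or 1 µg/ml Dox, with 3 libraries per line and dose, which gave 12 libraries of RNA 3′ ends. Every group carried the hairpin, and no line without it was given Dox, so the hairpin and the drug cannot be told apart. Whether the hairpin cells were a clone or a pool is not given in the sources used here. Per the labels MeWo grew in EMEM and SkMel28 in RPMI, and the line and its medium cannot be told apart either. The labels do not say whether replicates were separate cultures, and the p-values measure only the spread between these samples.

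MITF, TFEB, TFE3 and TFEC form a family of basic helix-loop-helix leucine zipper proteins that bind E-box DNA as homodimers or as heterodimers with each other. MITF holds melanocyte identity, survival and pigment production, whereas TFEB and TFE3 are best known for switching on lysosome and autophagy genes when they are released from mTORC1 control into the nucleus. In melanocytes SOX10, PAX3, CREB and LEF1 act on the MITF promoter. ZEB2 and SNAI2 are the epithelial-mesenchymal transition (EMT) factors typical of differentiated melanocytes, and ZEB1 and TWIST1 are typical of dedifferentiated melanoma cells.

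MITF occupies chromosome 3, 69739456 to 69968336, on the plus strand of hg38 (GENCODE 44 annotation, as for the other loci below). The deposited values are summed per gene, and 11 of its 15 annotated coding transcripts end in the same last part of the locus, so levels are not given per isoform. The start site used in melanocytes, MITF-M, lies inside the locus, and the 250 bases before it are shown because SOX10, PAX3 and CREB are known to act there (RefSeq promoter table, GRCh38.p14, chr3:69936342-69936591, plus strand, 5′ to 3′). The capitals mark a cyclic AMP response element.
MITF-M: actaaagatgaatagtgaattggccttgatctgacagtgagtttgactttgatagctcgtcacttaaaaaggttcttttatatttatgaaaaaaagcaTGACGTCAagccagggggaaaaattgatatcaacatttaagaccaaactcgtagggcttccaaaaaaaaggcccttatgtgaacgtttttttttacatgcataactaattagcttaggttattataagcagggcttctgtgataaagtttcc
The upstream bases of the first start site of TFAP2A, the only member whose change with Dox was called as different between the lines, are shown for comparison (chr6:10419660-10419909, minus strand, no capitals because no motif was found).
TFAP2A: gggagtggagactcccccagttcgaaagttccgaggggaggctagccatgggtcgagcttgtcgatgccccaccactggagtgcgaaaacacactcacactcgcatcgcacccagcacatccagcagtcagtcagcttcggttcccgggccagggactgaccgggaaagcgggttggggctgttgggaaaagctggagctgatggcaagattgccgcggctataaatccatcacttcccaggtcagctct
The search used 18 promoters of 7 members, and no entries for SOX10, SOX9 and SNAI2 were used here. Each window of 250 bases before to 50 after the start was searched on both strands for the E-boxes CACGTG and CATGTG, which the MITF family binds, and for the response element TGACGTCA. The response element was found in 1 of the 18 windows, that of MITF-M, 152 bases before the start, and it is held by 1.85% of the 35116 promoters in the table. None of the 18 windows searched held CACGTG, which 7.26% of all promoters hold. CATGTG, held by 11.1% of all promoters, was found in the single ZEB2 window, 180 bases before the start, and at 2 places in 1 of the 7 ZEB1 windows. The ZEB2 site is printed as it reads on the gene's strand, where the letters are reversed and complemented (chr2:144520284-144520309, minus strand), beside the nearer ZEB1 site (chr10:31321621-31321646, plus strand), with the motif in capitals.
ZEB2: atcacgttttCACATGatgctcacgc
ZEB1: atgtgtgtgaCATGTGagtctgaacc
A match in these letters is a description of the sequence and not a binding site shown by these data. A window without a match does not mean that the gene lacks a site elsewhere. By chromatin immunoprecipitation the paper reports MITF, TFEB and TFE3 bound at consensus motifs upstream of MITF-M.

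Libraries held between 2568187 and 3714608 reads, and 1 read corresponded to a value of 0.278 to 0.389 on the scale of normalised reads (per 1000000 of the effective library size) used for every level below. Changes are differences of log2(value + 1), Dox minus control, with the standard error (SE) of limma, and calls were made below an adjusted p of 0.05 over all 12616 genes. The lineage label held in every library, where all 8 melanocyte markers (SOX10 and S100B, described below, among them) were listed and summed to between 6363 and 12674, while no marker of leukocytes or endothelium was listed. That sum was lower with Dox in both lines, with ranges of 12430 to 12674 against 6363 to 7991 in MeWo and of 10940 to 12184 against 7206 to 7584 in SkMel28. PMEL was its largest part (means of 7450 and 3261 in MeWo and of 6562 and 2569 in SkMel28). By marker, 2 were called higher and 6 lower in MeWo (8.58% and 8.12% of all genes). In SkMel28 1 was called higher and 3 lower (5.88% and 5.04%). The library of MeWo Dox replicate 1 stood apart from its group. It lay at 14.1 on the second principal component, where the other MeWo Dox libraries lay at 37.6 and 37.8 and the MeWo controls between −32.9 and −28.0, and it held the highest MITF level of its group. The MeWo changes of the members and the counts of the gene lists are therefore also given without it. In that fit 31% of all genes were called in MeWo and 16.2% in SkMel28, against 16.7% and 10.9% with all libraries. MITF, SOX10 and TFAP2A were highest in that library within its group. For them, leaving it out deepens the MeWo fall by itself, and the calls gained that way carry no support. In bulk RNA, fewer cells of a type and less RNA per cell cannot be told apart.

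In MeWo 7 of the 9 listed members were called with Dox, 3 higher (TFE3, PAX3 and ZEB2) and 4 lower (MITF, SOX10, TFAP2A and SNAI2), where 16.7% of all genes were called, 8.58% higher and 8.12% lower. In SkMel28 only MITF, lower, and TFAP2A, higher, were called, where 10.9% of all genes were called, 5.88% higher and 5.04% lower. The median change of the members was 0 in MeWo and 0.14 in SkMel28 (−0.24 and 0.13 without ZEB1, which had no reads in MeWo), and over all genes it was 0 and 0.0029. In MeWo the 3 Dox and 3 control libraries did not overlap for 6 of the 9 members, against 28.8% of all genes, and in SkMel28 they did not overlap for 5 members, 4 without ZEB1, against 32.3%. Scaling to the spike-in RNAs moved the median change of all genes by 0.22 in MeWo and by −0.082 in SkMel28, and with it 3 members were called higher and 2 lower in MeWo (MITF and TFAP2A). The split of all called genes in MeWo then moved from 51.4% to 84.6% higher.

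**Figure D1:**
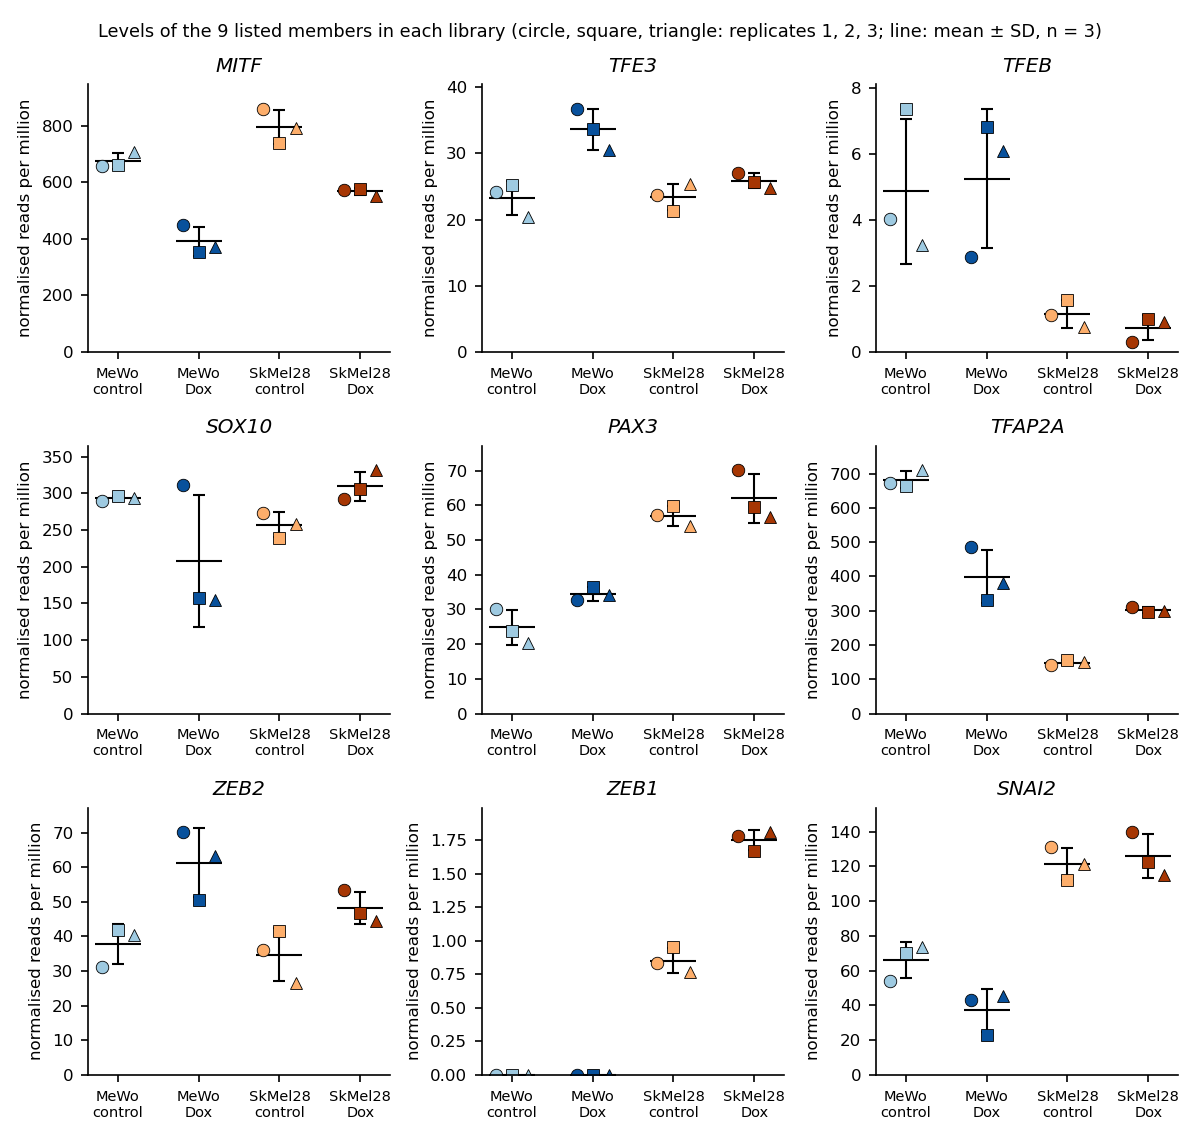
Level of each listed member in normalised reads (y axis, linear, from 0) in the 12 libraries, with the 4 groups on the x axis, 1 point per library and a line for the mean ± SD of 3. MITF was lower with Dox in both lines, while TFAP2A was lower in MeWo (664 to 709.9 against 332 to 485) and higher in SkMel28 (141 to 155 against 296 to 311).

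MITF, the target of the hairpin, was lower with Dox in every library of both lines. In MeWo its level was 657, 663 and 708 in the controls and 451, 354 and 371 with Dox. The SkMel28 values were 861, 739 and 792 in the controls and 575, 578 and 552 with Dox. Control and Dox libraries did not overlap in either line, and the lowest Dox library still held 935 MITF reads. The mean fell by 42.0% in MeWo (676 ± 27.9 to 392 ± 51.7, SD, n = 3; log2 change −0.79, SE 0.11, limma adjusted p = 6.49e-05). In SkMel28 it fell by 28.7% (797 ± 61.0 to 568 ± 13.8; log2 change −0.49, SE 0.11, limma adjusted p = 0.00705). The difference between these falls was −0.31 (95% interval −0.63 to 0.018, limma adjusted p = 0.225), and it was called once MeWo Dox replicate 1 was left out (−0.41, limma adjusted p = 0.0169), where 24.7% of all genes were called against 7.09% with it. That library held the highest MITF level of its group and was set apart partly for it. Leaving it out widens the difference by itself, so that call carries no support. Scaled to spike-ins, the difference was 0.066 (limma adjusted p = 0.908). MITF ranked highest in SkMel28 control, then MeWo control, SkMel28 Dox and MeWo Dox. The SkMel28 and MeWo controls did not differ by the test (log2 difference 0.24, 95% interval 0.0060 to 0.47, limma adjusted p = 0.0794), although their libraries did not overlap, and the difference was called under 3 of 23 alternatives, among them that without MeWo Dox replicate 1 (limma adjusted p = 0.0172), whereas with Dox SkMel28 kept the higher level (0.54, SE 0.11, limma adjusted p = 0.00045).

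TFE3, which shares the DNA contacts of MITF and is expressed in most tissues, was the other family member with a substantial level. It lies on chromosome X, 49028726 to 49043410, on the minus strand. Its level was 24.2, 25.3 and 20.4 in MeWo control and 36.7, 33.7 and 30.5 in MeWo Dox, so that all 3 Dox libraries stood above the controls. In SkMel28 it was 23.7, 21.3 and 25.3 against 27.0, 25.7 and 24.8, and the groups overlapped. TFE3 rose by 0.51 in MeWo (SE 0.16, limma adjusted p = 0.0324), a ratio of means of 1.44. In SkMel28 the change was 0.14 (95% interval −0.19 to 0.47, limma adjusted p = 0.661). The difference between the lines was 0.37 (95% interval −0.093 to 0.84, limma adjusted p = 0.305) and was not called. The controls of the lines overlapped, with a log2 difference of 0.0095 (95% interval −0.32 to 0.34). Without MeWo Dox replicate 1 the MeWo change was 0.45 (limma adjusted p = 0.0471). The MeWo call was lost under 5 of 23 alternatives, with limma adjusted p up to 0.138. These were the 6 MeWo libraries fitted alone, any 1 MeWo control left out and MeWo Dox replicate 2 left out.

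TFEB, on chromosome 6 from 41683978 to 41736259 on the minus strand, was read rarely. MeWo control libraries held 4.03, 7.38 and 3.24, and MeWo Dox libraries 2.87, 6.82 and 6.10, from 9 to 19 reads each. SkMel28 control libraries held 1.11, 1.59 and 0.766, and SkMel28 Dox libraries 0.297, 1.00 and 0.907, the latter from 1 to 3 reads each. At this depth no change with Dox was detectable in either line (limma adjusted p = 0.899 in MeWo and 0.631 in SkMel28). TFEB was lower in SkMel28 than in MeWo without overlap, in the controls (log2 difference −1.40, SE 0.33, limma adjusted p = 0.00198) and with Dox, where the summed reads gave a MeWo to SkMel28 ratio of 7.13 (95% counting interval 3.19 to 18.7). The fourth member of the family, TFEC, had no row.

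The reads of the family were counted within each library, where scaling cancels. 3′ end reads do not grow with transcript length, but they count reads and not protein. MITF held 95.9, 95.3 and 96.8% of the MITF, TFE3 and TFEB reads in MeWo control and 91.9, 89.7 and 91.0% with Dox. In SkMel28 it held 97.2, 97.0 and 96.8% in the controls and 95.5, 95.6 and 95.6% with Dox. The share fell by 5.09 percentage points in MeWo and by 1.47 in SkMel28, with no overlap in either line (exact permutation test, two-sided, p = 0.1 in each, the smallest that 3 against 3 allows). The share of TFE3 was 3.32 ± 0.459% in MeWo control and 7.83 ± 0.612% in MeWo Dox, and 2.85 ± 0.216% and 4.34 ± 0.123% in SkMel28, also without overlap. The level of TFE3 itself, by contrast, was not called as changed in SkMel28. MITF is the hairpin target and most of the total, so a fall of MITF alone lowers its share and raises that of TFE3. The shares are therefore no test apart from the fall of MITF.

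**Figure D2:**
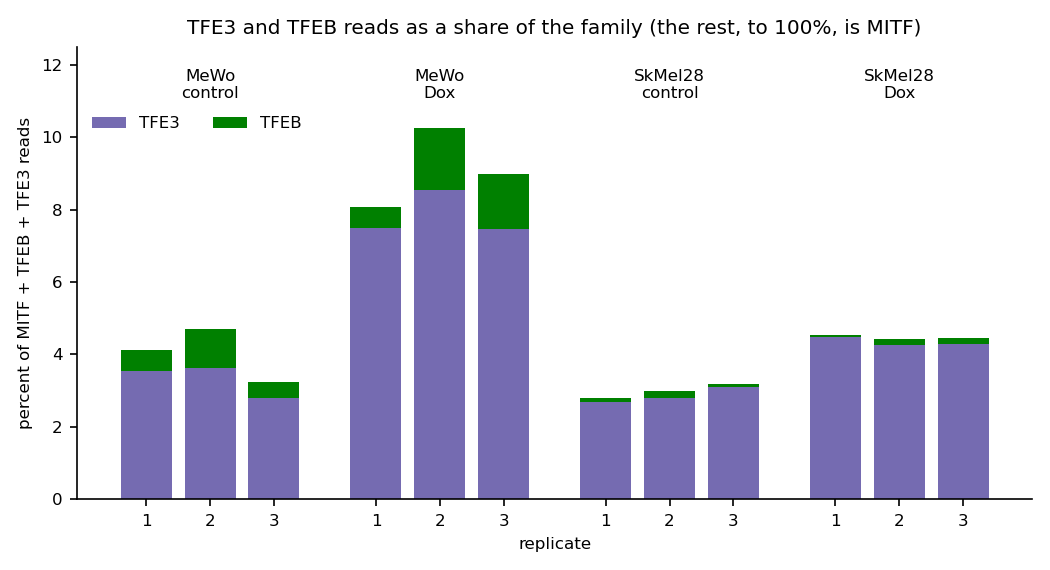
Percent of the MITF, TFE3 and TFEB reads of each library that were TFE3 (purple) or TFEB (green) on the y axis, from 0, with the 3 replicates of each group on the x axis. MeWo Dox libraries stood at 7.48 to 8.54% TFE3 and SkMel28 Dox libraries at 4.26 to 4.48%, all above the controls of their line.

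The lysosome and nutrient sensing genes that TFEB and TFE3 are known to switch on were lower or not called in MeWo, where TFE3 rose. Of 15 listed, 7 fell and none rose (limma, 8.12% of all genes called lower), and the median change was −0.32. At an unadjusted p below 0.05, 2 were higher, and edgeR and DESeq2 called 0 higher and 6 lower. In SkMel28 1 fell and 1 rose (5.04% and 5.88% of all genes called), and the median was −0.082. FNIP2, a partner of folliculin in mTORC1 control, fell in both lines (MeWo 57.0 to 20.3, SkMel28 79.9 to 31.6, log2 changes −1.45 and −1.32, limma adjusted p = 1.23e-06 and 7.31e-06). RRAGD, a Rag GTPase that brings mTORC1 to the lysosome, fell in MeWo (142.6 to 75.8, log2 change −0.91, limma adjusted p = 4.06e-05), and in SkMel28 its values were 124 and 102.9 (limma adjusted p = 0.182). PPARGC1A, the mitochondrial coactivator, FNIP1, UVRAG, WIPI1 and ATP6V1H made up the rest of the MeWo falls, with changes of −1.21 to −0.45. GPNMB, a lysosomal glycoprotein, rose in SkMel28 (444 to 679.6, log2 change 0.61, limma adjusted p = 0.0012) and stood at 536 and 529.9 in MeWo. Several of these genes are also known MITF targets. Scaled to spike-ins, the MeWo count was 3 lower and 2 higher, where 383 of the 12616 genes were called lower and 2097 higher. Without MeWo Dox replicate 1 the MeWo count was 8 lower and 1 higher, where 31% of all genes were called against 16.7% with it.

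SOX10, the neural crest factor that is required for the melanocyte lineage and activates MITF, went in opposite directions in the means of the lines, and 1 library decided its spread. It lies on chromosome 22, 37970686 to 37987422, on the minus strand, and POLR2F overlaps it on the other strand. In MeWo control SOX10 was tightly held at 289, 296 and 293. In MeWo Dox it was 312, 158 and 155, so that replicate 1 stood above every control while the others held far less. The fall in MeWo was 0.57 on the log2 scale, SE 0.19, limma adjusted p = 0.0455. This call was lost under 17 of 23 alternatives, including edgeR and DESeq2 (adjusted p = 0.0845 and 0.105) and scaling to spike-ins (log2 change −0.30, limma adjusted p = 0.34). Without replicate 1 the change was −0.90 (SE 0.095, limma adjusted p = 8.66e-07). In SkMel28 it was 273, 239.6 and 258 in the controls and 292, 305 and 331 with Dox, without overlap (log2 change 0.27, 95% interval −0.13 to 0.66, limma adjusted p = 0.43). That SkMel28 change was called when MeWo Dox replicate 1 was left out (limma adjusted p = 0.0376), where the SE shared by the groups was 0.085 in place of 0.19. The difference between the lines was −0.84 (SE 0.27, limma adjusted p = 0.0621) with all libraries and −1.17 (limma adjusted p = 4.32e-06) without that library. Strand use in the counting is not given in the sources used here. POLR2F stood at 159 ± 9.63 and 182 ± 35.2 in MeWo control and Dox and at 279 ± 6.31 and 246 ± 17.5 in SkMel28, and its part in the SOX10 reads was not tested.

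Of 7 genes tested that SOX10 is known to activate in glia and melanocytes, 5 rose and none fell with Dox in each line. By limma 8.58% of all genes were called higher in MeWo and 5.88% in SkMel28. ERBB3, MIA, CDH19 and S100B were among the rises in both lines, and the share of all genes called higher in both was not counted. At an unadjusted p below 0.05, and with edgeR or DESeq2, the number that fell was also 0 in both lines. The median change was 1.41 in MeWo and 0.56 in SkMel28. S100B, a calcium binding protein of glia and melanocytes, rose from 62.9 ± 3.27 to 248 ± 5.74 and from 510.0 ± 27.7 to 1123 ± 66.8. The receptor ERBB3 rose in MeWo from 104.9 ± 5.23 to 339.6 ± 32.9 and in SkMel28 from 88.3 ± 6.21 to 130.4 ± 11.9. CDH19, a cadherin of the Schwann cell lineage, and MIA, a protein secreted by melanoma cells, also rose in both lines, the gap junction gene GJB1 rose in MeWo and the endothelin receptor gene EDNRB in SkMel28. NES, an intermediate filament of neural progenitors, was not called in either line (77.2 and 113 in MeWo, at most 0.797 on average in SkMel28). Scaled to spike-ins, 5 were called higher in MeWo and 3 in SkMel28, where 2097 and 394 of the 12616 genes were called higher. Without MeWo Dox replicate 1, 5 were again called higher in MeWo, where 31% of all genes were called. SOX10 itself was then lower in MeWo by 0.90 on the log2 scale. The list does not hold MITF itself or the pigment genes TYR and TYRP1, which are also tied to SOX10. In MeWo TYR fell by 0.67 (limma adjusted p = 0.0418) and TYRP1 by 1.42 on the log2 scale (limma adjusted p = 1.24e-05). DCT, a further pigment gene outside the list, rose in MeWo by 0.91 (limma adjusted p = 2.71e-05). In SkMel28 TYR, TYRP1 and DCT were not called (log2 changes 0.28, −0.52 and −0.24). ERBB3 and S100B rose more in MeWo by the test of the difference (limma adjusted p = 0.000717 and 0.00198).

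PAX3, a paired box factor that acts with SOX10 on MITF, was higher in SkMel28 than in MeWo. The gene spans chromosome 2 from 222199887 to 222298998 on the minus strand. Its level was 30.2, 23.7 and 20.4 in MeWo control, 32.6, 36.4 and 34.2 in MeWo Dox, 57.1, 59.7 and 54.0 in SkMel28 control and 70.1, 59.5 and 56.5 in SkMel28 Dox. Every SkMel28 library stood above every MeWo library (log2 difference of the controls 1.18, SE 0.16, limma adjusted p = 6.05e-06). With Dox PAX3 rose in MeWo by 0.47 (SE 0.16, limma adjusted p = 0.0452), which edgeR and DESeq2 did not call (adjusted p = 0.0679 and 0.0788). Without MeWo Dox replicate 1 it was 0.51 (limma adjusted p = 0.0212). In SkMel28 the change was 0.12 (95% interval −0.21 to 0.44, limma adjusted p = 0.72).

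TFAP2A, the AP-2α factor of neural crest and melanocyte differentiation that shares many sites with MITF, moved in opposite directions in the lines. It lies on chromosome 6, 10393186 to 10419659, on the minus strand. In MeWo its level was 673, 664 and 709.9 in the controls and 485, 332 and 381 with Dox. In SkMel28 it was 141, 155 and 149.8 in the controls and 311, 296 and 299 with Dox. Groups did not overlap in either line. The change was −0.79 in MeWo (SE 0.12, limma adjusted p = 0.000208), a fall of 41.4% in the mean. In SkMel28 it was 1.02 (SE 0.12, limma adjusted p = 2.66e-05), a ratio of means of 2.03. The difference between the changes was −1.81 (SE 0.17, limma adjusted p = 1.09e-05), and 48 genes, 0.38% of all, were called in both lines in opposite directions. By this same difference the gap between the lines narrowed, from −2.19 in the controls (SkMel28 minus MeWo, limma adjusted p = 1.31e-10) to −0.39 with Dox (limma adjusted p = 0.013). The order of levels was MeWo control, MeWo Dox, SkMel28 Dox and SkMel28 control, and no neighbouring groups overlapped. Without MeWo Dox replicate 1 the MeWo change was −0.94 and the difference −1.95. The antisense gene TFAP2A-AS1 was read at 3.26 to 6.96 on average in the 4 groups and was not called in either line, and antisense reads cannot be told apart from those of TFAP2A where strand is not used.

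**Figure D3:**
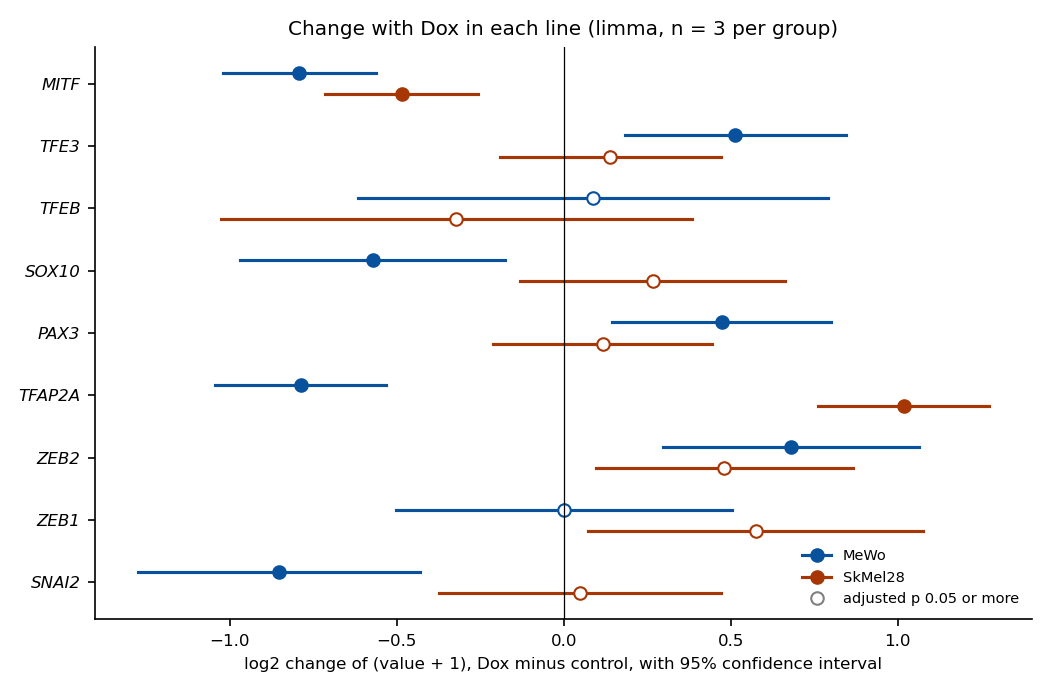
Log2 change of each listed member, Dox minus control (x axis), in MeWo (blue) and SkMel28 (brown), with 95% confidence intervals from limma and open points where the adjusted p was 0.05 or more. TFAP2A stood at −0.79 in MeWo and 1.02 in SkMel28, and MITF was below 0 in both lines.

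ZEB2, a zinc finger repressor that takes part in melanocyte differentiation, was higher with Dox in MeWo. It lies on chromosome 2, 144364364 to 144521057, on the minus strand. Its level was 31.1, 42.0 and 40.5 in MeWo control and 70.2, 50.4 and 63.3 in MeWo Dox. Levels in SkMel28 were 36.2, 41.6 and 26.4 in the controls and 53.4, 46.8 and 44.4 with Dox. In both lines every Dox library stood above every control. The change was 0.68 in MeWo (SE 0.18, limma adjusted p = 0.0163) and 0.48 in SkMel28 (95% interval 0.098 to 0.86, limma adjusted p = 0.107). The difference between the lines was 0.20 (95% interval −0.34 to 0.74), and without MeWo Dox replicate 1 the MeWo change was 0.58 (limma adjusted p = 0.0232).

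ZEB1, the related factor of dedifferentiated and mesenchymal cells, had 0 reads in all 6 MeWo libraries. The locus is on chromosome 10, 31318495 to 31529814, on the plus strand. SkMel28 control libraries held 3, 3 and 2 reads and SkMel28 Dox libraries 6, 5 and 6 (values of 0.835, 0.952 and 0.766 against 1.78, 1.67 and 1.81). A count of 0 allows up to 3 reads per library, a value of at most 1.17 in MeWo. Every gene of the table had a value of 1 or more in at least 3 libraries, which ZEB1 reached in the 3 SkMel28 Dox libraries alone, so it was listed only through the group where it was high, and its differences between groups carry no support. Within SkMel28 the summed reads gave a Dox to control ratio of 2.06 (95% Clopper-Pearson counting interval 0.841 to 5.50), and the change was not called (limma adjusted p = 0.144). The balance of the pair, log2 of (ZEB2 + 1) over (ZEB1 + 1), moved by 0.68 in MeWo, where only ZEB2 was read (exact permutation test, two-sided, p = 0.1, the smallest possible). With ZEB1 at 0 reads there, the MeWo balance only repeats the change of ZEB2. In SkMel28 the balance moved by −0.093 with overlap (p = 0.7, exact permutation test). That value rests on the same ZEB1 reads and carries no support either.

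SNAI2, the SLUG repressor that acts in neural crest migration and melanocyte survival, was lower with Dox in MeWo. The gene spans chromosome 8 from 48917598 to 48921740 on the minus strand. Its level was 54.1, 70.3 and 73.5 in MeWo control and 43.4, 23.1 and 45.4 in MeWo Dox, so that all 3 Dox libraries stood below the controls. SkMel28 libraries held 131, 112 and 121 in the controls and 139.8, 123 and 115 with Dox, and the groups overlapped. The change was −0.85 in MeWo (SE 0.20, limma adjusted p = 0.00693) and 0.048 in SkMel28 (95% interval −0.37 to 0.47). The difference between the changes missed the threshold (−0.90, SE 0.28, limma adjusted p = 0.0611) and was called without MeWo Dox replicate 1 (−1.04, limma adjusted p = 0.00753). Scaled to spike-ins the MeWo fall was 0.59 on the log2 scale and not called (limma adjusted p = 0.08). Relative to the median of all genes under that scaling it was −0.81, but this takes the shift of that scaling out again and adds no support. SNAI2 was 1.84-fold higher in SkMel28 than in MeWo among controls and 3.37-fold higher with Dox (limma adjusted p = 0.00139 and 9.37e-07).

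**Figure D4:**
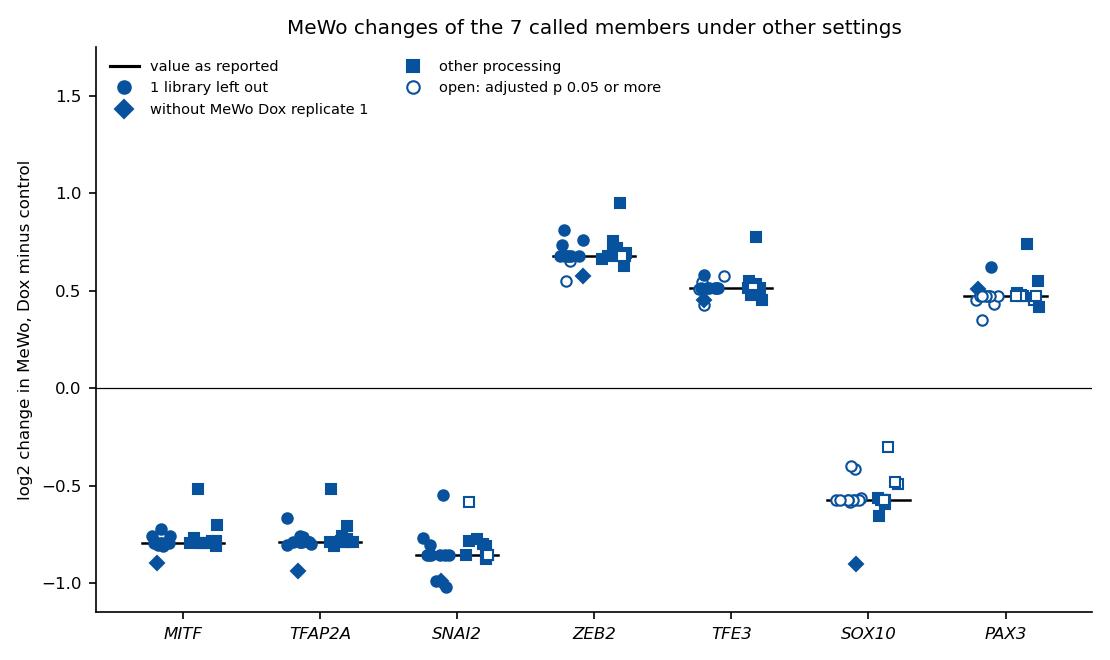
Log2 change in MeWo, Dox minus control (y axis), of the 7 called members (x axis) as reported (line), with 1 library left out (circles, diamond for MeWo Dox replicate 1) and under other processing (squares), with open symbols where the adjusted p was 0.05 or more. MITF and TFAP2A were called under all 23 alternatives and SOX10 under 6 of them.

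Between the lines ZEB1 was left out of the counts, because both control groups lay at or under the level that a count of 0 allows. Of the other 8 members 4 were called in the controls, where 51.4% of all genes were called: PAX3 and SNAI2 higher in SkMel28 (26.6% of all genes), TFAP2A and TFEB lower (24.8%). With Dox 6 were called (53.6% of all genes, 28% higher and 25.6% lower), MITF, SOX10, PAX3 and SNAI2 higher and TFAP2A and TFEB lower in SkMel28. Scaled to spike-ins, MITF and SOX10 were not called in that last comparison (limma adjusted p = 0.145 and 0.0874) and TFE3 and ZEB2 were lower. The libraries of the lines did not overlap for 6 of the 8 members in the controls and for 6 with Dox, against 62.1% and 55.9% of all genes. These comparisons share their libraries with the changes with Dox.

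Of 7 listed adhesion genes linked to the ZEB and SNAI factors, 1 rose and 3 fell in MeWo (8.58% and 8.12% of all genes called), and 4 rose and 2 fell in SkMel28 (5.88% and 5.04%). CDH2, the N-cadherin of mesenchymal and neural cells, rose in MeWo, and CDH1 (E-cadherin), CDH3 (P-cadherin) and the splicing regulator ESRP1 fell (median change −0.32). In SkMel28 CDH2, VIM, FN1 and CLDN1 rose, and CDH1 and CDH3 fell (median 0.51). In MeWo CDH2 stood at 30.2 ± 0.0930 in the controls and 112.7 ± 43.5 with Dox, and in SkMel28 at 13.0 ± 2.96 and 50.4 ± 8.07 (log2 changes 1.79 and 1.88, limma adjusted p = 3.44e-05 and 3.39e-05). CDH1 fell from 52.3 ± 8.68 to 25.5 ± 5.70 and from 4.46 ± 1.33 to 1.32 ± 0.711, and CDH3 from 20.0 ± 2.46 to 6.35 ± 5.36 and from 84.4 ± 14.5 to 29.9 ± 3.25. FN1, the matrix protein fibronectin, rose in SkMel28 from 1338 ± 188 to 4491 ± 66.2 and stood at 45.9 and 47.7 in MeWo. CLDN1, a tight junction gene, rose in SkMel28 from 9 to 32 reads (ratio 3.44, 95% counting interval 1.60 to 8.19) and had 0 reads in MeWo. Of the other libraries only 1 reached a value of 1 for CLDN1, so it was listed through the SkMel28 Dox group where it was high. Its rise therefore carries no support, and CDH2, VIM and FN1 were the 3 rises besides it. VIM, the vimentin gene, rose in SkMel28 (1707 to 2425), and ESRP1 fell in MeWo (97.4 to 47.4). EPCAM and OCLN had no row. Scaled to spike-ins, 2 fell in MeWo and 3 rose in SkMel28, where 383 and 394 of the 12616 genes were called that way. edgeR and DESeq2 called 3 higher in SkMel28. Without MeWo Dox replicate 1 the MeWo count was 1 higher and 4 lower, where 31% of all genes were called.

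**Figure D5:**
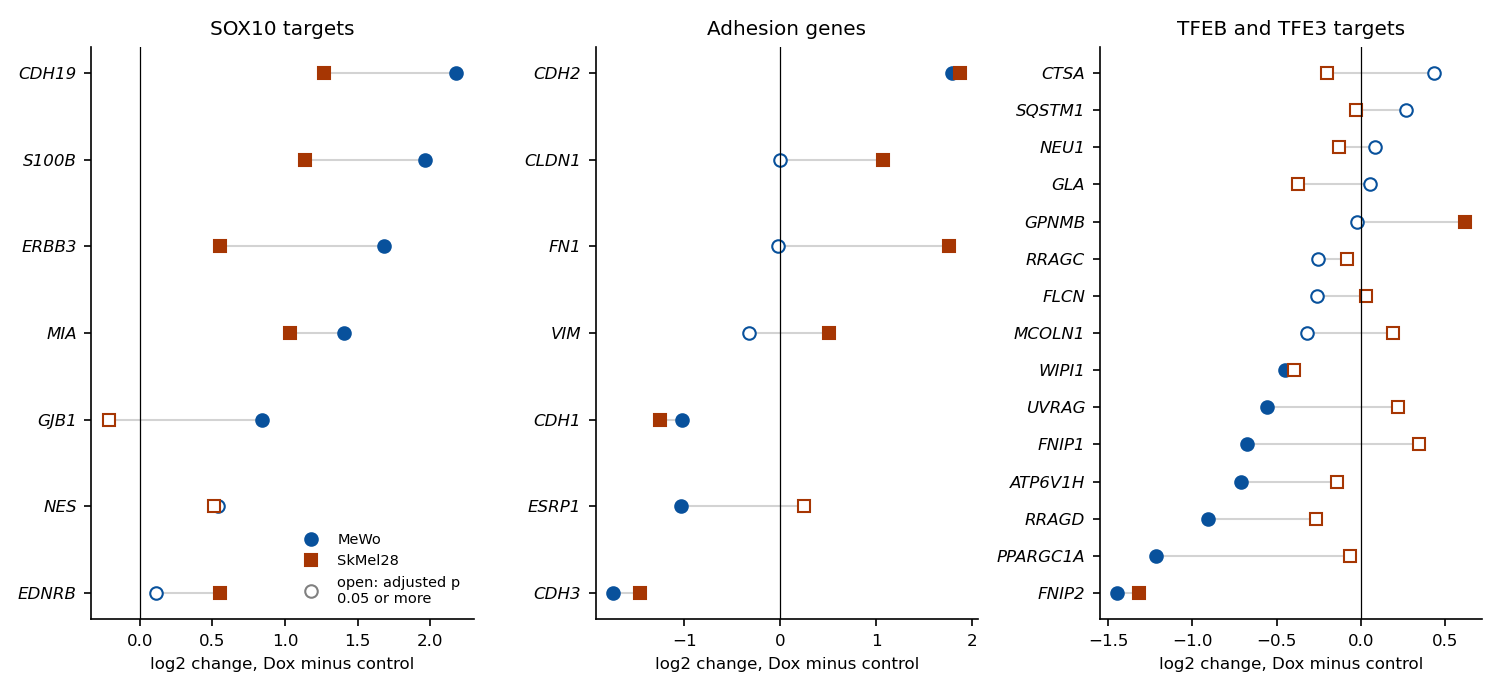
Log2 change with Dox (x axis) of the listed SOX10 targets, adhesion genes, and TFEB and TFE3 targets, 1 gene per line, in MeWo (blue circles) and SkMel28 (brown squares), open where the adjusted p was 0.05 or more. SOX10 targets stood above 0 except GJB1 in SkMel28 (−0.21), and 7 TFEB and TFE3 targets were called lower in MeWo.

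Other regulators of MITF transcription were read beside its fall. Of 12 listed, 2 rose and 1 fell in MeWo (8.58% and 8.12% of all genes called) and 3 rose and 1 fell in SkMel28 (5.88% and 5.04%). SOX2, a neural progenitor factor, rose in both lines, from 2.12 to 16.0 in MeWo (log2 change 2.44, limma adjusted p = 9.18e-06) and from 5 to 28 reads in SkMel28 (ratio 5.42, 95% counting interval 2.06 to 18.0). POU3F2 (BRN2), which is tied to invasive melanoma cells, rose in MeWo (9.45 to 19.2, log2 change 0.97, limma adjusted p = 0.00693). FOXD3, a neural crest factor that represses MITF, rose in SkMel28 (7.33 to 27.5, log2 change 1.81, limma adjusted p = 0.00119), as did ATF4 of the integrated stress response (313 to 429). CTNNB1, the β-catenin gene, fell by 0.37 in both lines. LEF1 and CREB1 were not called in either line. Scaled to spike-ins the MeWo count was 3 higher and none lower, and that of SkMel28 2 higher and none lower. Of the 12616 genes 2097 were then called higher and 383 lower in MeWo, and 394 and 533 in SkMel28. Without MeWo Dox replicate 1 the MeWo count was 3 higher and 3 lower, where 31% of all genes were called against 16.7% with it. CREB1 was then among the lower genes (log2 change −0.63, limma adjusted p = 0.00917).

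Of 11 other neural crest and melanocyte factors listed, 4 rose and 2 fell in MeWo (8.58% and 8.12% of all genes called) and 3 rose in SkMel28 (5.88%). MEF2C and SOX4 rose in both lines, MEF2C from 26.6 to 54.4 and from 23.8 to 48.9. TBX2, a T-box factor of melanocytes, rose in MeWo (44.2 to 171.8) and stood at 25.3 and 29.5 in SkMel28, and the difference between the changes was called (limma adjusted p = 0.00166). SOX8, the close relative of SOX10 and SOX9, rose in MeWo (16.0 to 40.7, log2 change 1.34, limma adjusted p = 0.00241), and the difference from SkMel28 was not called. ETS1 fell in MeWo (107 to 68.3) and rose in SkMel28 (45.1 to 71.8), with a difference of −1.29 (limma adjusted p = 0.00325). IRF4, a melanocyte pigmentation factor, fell from 18 to 5 reads in MeWo (ratio 0.291, 95% counting interval 0.0844 to 0.813) and stood at 42.3 and 42.1 in SkMel28. TFAP2C, the paralogue of TFAP2A, was not called in either line with all libraries. It was called higher in MeWo without MeWo Dox replicate 1 (log2 change 0.43, limma adjusted p = 0.0131). Of 5 other EMT factors listed, FOSL1 (3.40 to 6.81) and TCF4 (2.31 to 4.85) rose in MeWo, of which edgeR called 1 and DESeq2 0. None were called in SkMel28 by limma, edgeR or DESeq2 (at an unadjusted p below 0.05, 1 higher and 1 lower), and TWIST1 and SNAI1 were not called in either line. With spike-in scaling 5 neural crest factors rose and 1 fell in MeWo. edgeR and DESeq2 called 4 higher and 1 lower, 0 were called lower when the 6 MeWo libraries were fitted alone, and without MeWo Dox replicate 1 the counts were 5 higher and 3 lower. The EMT factors called higher were then 3 in MeWo and 1 in SkMel28, where 31% and 16.2% of all genes were called. SNAI1 was then called in both lines (log2 changes 1.43 and 1.23, limma adjusted p = 0.0121 and 0.0256).

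The genes whose levels followed each member most closely over the 12 libraries were found by the root mean square difference of centred log2 profiles, among 8072 genes with a mean of at least 10. The profile of MITF was nearest to HEBP1 (0.093), HMGB3 (0.10) and CCNG1 (0.12), where the median gene lay at 0.56. TFE3 was nearest to REST (0.11), SOX10 to DUSP14 (0.096), PAX3 to PREB (0.15) and ZEB2 to CDC42SE1 (0.16). The members with the widest range between groups had less close neighbours, C1orf198 for TFAP2A (0.21, median 0.86) and BCAP29 for SNAI2 (0.19, median 0.85). These are descriptions over libraries that share 4 groups, and they carry no test.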

How the data were processed

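RNA 3′ ends were sequenced from 12 libraries of MeWo and SkMel28 cells (QuantSeq Forward). The authors deposited a normalised signal, reads divided by an effective library size per 1000000, with low features removed. The submitters' processing notes name FastQC 0.11.7, cutadapt 2.8, STAR 2.5.1b, edgeR and hg38. The counter, annotation and strand are not given in the sources used here. The authors' table held 12683 features, 67 of them spike-ins, which were set aside. All values (100%, tolerance 0.01 of a read) were whole multiples of 1 read, and the recovered reads were used for family shares, ratios of low reads and the edgeR and DESeq2 alternatives. edgeR called 2045 genes in MeWo and 1422 in SkMel28, where limma called 2107 and 1378.

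Values were tested as log2(value + 1), which understates changes of low genes, with limma 3.58.1 (lmFit and eBayes with trend, R 4.3.3) over all 12 libraries, two-sided, with Benjamini-Hochberg adjustment over 12616 genes. Shares and balances were tested by exact permutation. A group with at most 3 reads in every library was treated as at the floor, and ratios of summed reads were given with exact intervals. Floors and intervals cover counting error only, since reads had no molecular identifiers. Genes at the floor in both groups have no fold.

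The members and lists were chosen with earlier results of these data known, and support nothing beyond the values given. The list of SOX10 targets is described without 2 genes that are not reported here. Besides the members, the rule named list genes called with Dox, up to 3 others per list and the nearest profiles. The medium of MeWo differs between the labels (EMEM) and the methods (RPMI). Alternatives were edgeR 4.0.16, DESeq2 1.42.0, other scalings, pseudocounts and filters, no trend, a replicate block, the 6 libraries of 1 line alone and each library left out. A correction for GC content of the last 500 transcript bases, and all alternatives for the lists, were chosen after seeing the data. The limma test was tried on simulated data first.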

Additional observations from a re-analysis of the deposited data

Results flagged for a closer look

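The change with Dox differed between the lines for 1 of the 9 listed members and 11 list genes. Calls were by the limma test of the difference at an adjusted p below 0.05, where 7.09% of all genes were called. The lists held 12 MITF regulators, 5 EMT factors, 11 neural crest factors, 7 SOX10 targets, 7 adhesion genes and 15 TFEB and TFE3 targets. Each value is the log2 change in MeWo minus that in SkMel28. The groups had 3 libraries each, too few for a test of single libraries against their group.

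TFAP2A, which fell in MeWo and rose in SkMel28, differed by −1.81. Among neural crest factors ETS1 differed by −1.29, with opposite calls in the lines, and TBX2 by 1.68. Among SOX10 targets ERBB3 and S100B were called higher in both lines, and ERBB3 differed by 1.13 and S100B by 0.82. Among adhesion genes FN1 differed by −1.78, ESRP1 by −1.28 and VIM by −0.83. Among TFEB and TFE3 targets FNIP1 differed by −1.02, UVRAG by −0.78, RRAGD by −0.64 and GPNMB by −0.64. Scaled to spike-ins, 0 of the TFEB and TFE3 targets were called with a lower value in MeWo and 1 with a higher one, and with the GC correction 1 was called with a lower value.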

How the results depend on the processing

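The falls of MITF and TFAP2A in MeWo, and the rise of TFAP2A in SkMel28, were called under all 23 alternatives, its difference between the lines under all 22 that were fitted, and the fall of MITF in SkMel28 under all but the fit with no mean-variance trend. The 7 MeWo calls became 2 (MITF and TFAP2A) when only the 6 MeWo libraries were fitted, and 4 to 7 with 1 library left out, 4 without any 1 of the MeWo controls or without MeWo Dox replicate 2 or 3. The call of SOX10 in MeWo was lost under 17 alternatives, that of PAX3 under 16, TFE3 under 5, ZEB2 under 3 and SNAI2 under 2. edgeR and DESeq2 each called 5 members in MeWo, without SOX10 and PAX3. The 1 called difference between the lines became 2 with DESeq2 and 2 with the GC correction, and 1 to 4 with a library left out (4 without MeWo Dox replicate 1, 2 without MeWo Dox replicate 3). The cause of these moves was not tested. Directions of changes that were not called reversed for TFEB in MeWo (−0.077 with the GC correction, −0.12 to 0.40 with a library left out), SNAI2 in SkMel28 (−0.050 with spike-ins, −0.090 with the GC correction, −0.030 to 0.11 with a library left out), the MITF difference between the lines (0.066 with spike-ins), TFE3 between controls (−0.022 with upper-quartile scaling, −0.054 with the GC correction, −0.079 to 0.074 with a library left out), ZEB2 between controls (0.012 with spike-ins, −0.27 to 0.046 with a library left out) and the ZEB2 to ZEB1 balance in SkMel28 (0.23 with a pseudocount of 5, −0.24 to 0.0058 with a library left out). Deviations of libraries with equal replicate numbers correlated at −0.18 to 0.22 over 18 pairs. The labels do not say whether the numbers pair samples, and these correlations cannot settle it. A fit with the replicate block called 6 members in MeWo. Depth limits TFEB and ZEB1, with at most 19 and 6 reads per library.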

Other observations

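Among the melanocyte markers, PMEL, the amyloid protein of the melanosome, fell in both lines (7450 to 3261 in MeWo and 6562 to 2569 in SkMel28, limma adjusted p = 4.9e-07 and 2.73e-07), as did MLANA (log2 changes −1.65 and −0.54) and GPR143 (−0.86 and −0.62). DCT, dopachrome tautomerase, went the other way in MeWo and rose from 949.5 ± 23.1 to 1790.3 ± 159 (log2 change 0.91, limma adjusted p = 2.71e-05), while its levels in SkMel28 were 1093 and 919 (limma adjusted p = 0.207). TYR fell in MeWo (373 ± 25.8 to 250.2 ± 121, limma adjusted p = 0.0418). Without MeWo Dox replicate 1 these MeWo changes were −1.26 for PMEL, −1.70 for MLANA, −0.78 for GPR143, 0.85 for DCT and −1.04 for TYR, all called, and that of LUM, below, was −1.98. LUM, a small matrix proteoglycan on the fibroblast marker list, fell in MeWo from 44.4 to 12.6 (log2 change −1.78, limma adjusted p = 3.06e-05), and 3 of the 5 fibroblast markers had no row. Of 4 keratinocyte markers only KRT10 was listed (144 and 154 in MeWo, 94.5 and 113.6 in SkMel28), and it was not called in either line. Their part in the results above was not tested.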
